A study of Mus musculus with 16 samples.

Results

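Expression of 10 genes that type I interferon is known to switch on was followed across the livers of 4 mouse genotypes: Isg15, Usp18, Irf7, Ifit1, Ifit2, Ifit3, Oas1a, Oasl2, Rsad2 and Ifi44. They were taken by gene symbol, and all 10 were found among the 18209 genes with an identifier in the expression table. RNA of whole livers was sequenced in 16 libraries from mice 20 days old, labelled male, with 4 libraries per genotype. The study asked what a pair of KEAP1 cysteines, Cys226 and Cys613, contributes when selenoproteins are missing from the liver. KEAP1 is the adaptor that marks the transcription factor NRF2 for degradation.

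Every mouse carried the floxed selenocysteine tRNA gene, Trsp fl/fl, so the controls had it too. The Trsp fl/fl group had no further allele, and the Trsp fl/fl::AlbCre group carried Cre under the albumin promoter, which deletes Trsp in hepatocytes and leaves the other liver cells with the gene. In addition, 2 groups were homozygous for serine in place of both cysteines of Keap1, in every cell of the body: Keap1 C226S&C613S homo::Trsp fl/fl, shortened here to Keap1 mutant::Trsp fl/fl, as well as Keap1 C226S&C613S homo::Trsp fl/fl::AlbCre, shortened to Keap1 mutant::Trsp fl/fl::AlbCre. No treatment with interferon or virus was given in the labels, and whether any liver had an infection or injury was not tested. The labels give separate samples but not litters or culling days, and the p-values measure the spread between these samples.

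Type I interferons, the alpha and beta interferons, bind the receptor IFNAR1/IFNAR2 on nearly all nucleated cells. The receptor's kinases activate a complex that holds STAT2 and IRF9 and binds the interferon-stimulated response element. Interferon gamma instead binds IFNGR1/IFNGR2 and acts through the gamma-activated sequence, and through IRF1, which binds the response element as well. The immunity-related and guanylate-binding GTPases are best known as genes of the gamma response. The 10 members are best known as antiviral genes of the type I response, although many genes of each group answer to both. In liver, hepatocytes, Kupffer cells and endothelial cells can all express them.

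The promoters of both groups carry these elements, and the members' stretches are shown for the response element core, through which type I interferon acts. RefSeq promoters (GRCm38.p6), each with 250 bases before and 50 after a transcript start, were matched by symbol for 9 of the 10 members, and Usp18 was the member without a match. Searched on both strands, the letters GAAANNGAA, the core of the response element, were found for 6 of the 9 members (Isg15, Ifit1, Ifit3, Oas1a, Rsad2 and Ifi44), against 8.56% of all 32851 promoters. The gamma-activated sequence, TTCNNNGAA, which reads the same on both strands, was found for 2 of the 9 members (Ifit2 and Oas1a), against 8.3% of all promoters. No match of one overlapped a match of the other in the members. The 160 bases before the start are printed 5′ to 3′ on the gene's strand, with each response element core, on either strand, in capitals. They lie at chr4:156200819-156200978 (minus strand, Isg15), chr19:34640729-34640888 (plus, Ifit1), chr19:34583369-34583528 (plus, Ifit3), chr5:120907526-120907685 (minus, Oas1a) and chr12:26456453-26456612 (minus, Rsad2).
Isg15: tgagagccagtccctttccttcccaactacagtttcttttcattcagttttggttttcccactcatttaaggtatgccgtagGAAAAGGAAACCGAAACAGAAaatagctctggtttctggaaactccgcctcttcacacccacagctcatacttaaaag
Ifit1: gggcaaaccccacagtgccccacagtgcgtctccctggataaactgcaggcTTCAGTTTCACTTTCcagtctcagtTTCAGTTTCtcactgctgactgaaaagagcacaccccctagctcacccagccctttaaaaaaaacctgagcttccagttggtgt
Ifit3: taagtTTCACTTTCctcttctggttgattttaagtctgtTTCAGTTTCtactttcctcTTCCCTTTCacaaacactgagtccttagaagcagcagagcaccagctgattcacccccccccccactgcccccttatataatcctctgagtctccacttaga
Oas1a: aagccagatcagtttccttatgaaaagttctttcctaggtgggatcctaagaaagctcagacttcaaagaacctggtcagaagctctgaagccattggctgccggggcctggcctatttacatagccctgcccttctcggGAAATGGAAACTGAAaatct
Rsad2: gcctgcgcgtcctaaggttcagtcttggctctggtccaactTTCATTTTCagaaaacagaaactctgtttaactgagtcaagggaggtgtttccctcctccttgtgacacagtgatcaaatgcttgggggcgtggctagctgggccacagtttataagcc

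In Isg15 the core matched 3 times in overlap between bases -78 and -58, counted from the start. Ifit1 and Ifit3 had 3 matches each on the opposite strand, Oas1a had 2 overlapping matches between -20 and -6, and Rsad2 had 1. Ifi44 had 1 across its start, from -3 to 6. A match is a description of these letters and not a measured binding site. The NRF2 motif TGACNNNGC, searched on both strands because the study is about NRF2, was found for 4 of the 9 members (Oasl2, Irf7, Rsad2 and Ifi44) and in 12.4% of all promoters.

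For contrast, 11 of 18 GTPases of the gamma response matched a promoter. Of these, 10 had the response element core and 6 had the gamma-activated sequence. In 4 of them (Igtp, Irgm2, Tgtp1 and Tgtp2) the gamma-activated sequence stood 2 bases before a response element core, an arrangement that no member showed in these windows. The share of all promoters with this arrangement was not counted. All 4 genes are on chromosome 11, and whether they are separate instances was not tested. Irgm2 (chr11:58214817-58214976, plus) and Tgtp1 (chr11:48992247-48992406, minus) are printed with both elements in capitals.
Irgm2: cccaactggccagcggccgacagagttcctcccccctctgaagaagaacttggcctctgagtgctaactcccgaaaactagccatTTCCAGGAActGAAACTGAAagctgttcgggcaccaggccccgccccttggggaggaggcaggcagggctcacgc
Tgtp1: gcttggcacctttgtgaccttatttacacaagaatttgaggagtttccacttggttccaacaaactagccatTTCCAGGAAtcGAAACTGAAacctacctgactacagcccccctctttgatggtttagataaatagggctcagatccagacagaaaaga

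**Figure D1:**
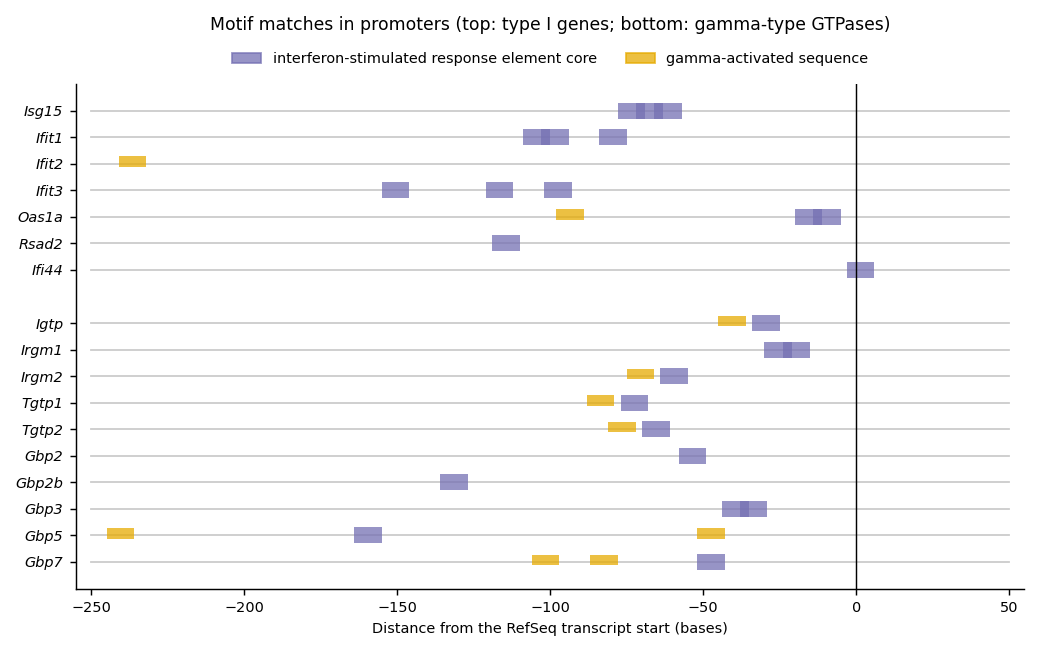
Positions of motif matches, in bases from the RefSeq transcript start (horizontal axis), in the promoters of 7 members (top) and 10 GTPases of the gamma response (bottom) with at least 1 match. Purple boxes are response element cores and yellow boxes gamma-activated sequences, and grey lines show the window searched. Yellow boxes stand in 2 members and in 6 GTPases.

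The libraries held 11386721 to 19164140 recovered reads (median 15509642), and the members' lowest value in any library was 27 reads (Oas1a). Gpx1 and Selenow, mRNAs of selenoproteins that are known to decay when selenocysteine cannot be inserted, were lower in both AlbCre groups (limma log2 fold changes -2.11 and -1.39 with wild-type Keap1, -1.84 and -1.15 with mutant Keap1, adjusted p between 6.2e-05 and 0.00091). Nqo1, an NRF2 target, was higher in Trsp fl/fl::AlbCre than in Trsp fl/fl (log2 fold change 2.27) and lower in the Keap1 mutant than in wild-type Keap1 in AlbCre livers (-2.96). All 6 hepatocyte markers listed were above 0 in every library. Keap1 mutant::Trsp fl/fl::AlbCre replicate 1 stood apart from its label: its Xist reached a normalized count of 26851, where the other 15 libraries had 20.2 to 52.2, and it was at 0 for the Y-linked genes Ddx3y, Uty and Eif2s3y. It also had the highest summed count of erythroid markers (70393, against 9226 to 46453 in the other libraries). Of hepatocyte markers it had the lowest summed count (831567, against 1151139 to 2091427 in the other libraries). The members' comparisons that use it are given with and without it.

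Isg15 encodes a ubiquitin-like protein that is joined to other proteins after interferon, and Usp18 encodes the protease that removes it and also blocks signalling at IFNAR2. Isg15 (ENSMUSG00000035692) had normalized counts of 206, 168, 77.8 and 95.8 in Trsp fl/fl, 46.6, 60.3, 154 and 144 in the Trsp fl/fl::AlbCre livers, 74.8, 113, 71.8 and 275 in Keap1 mutant::Trsp fl/fl, and 197, 73.2, 125 and 44.0 in Keap1 mutant::Trsp fl/fl::AlbCre, in the order of replicates 1 to 4. Its genotypes overlapped throughout, and within each genotype the highest library was 2.57 to 4.18 times the lowest, with the constant of 4 kept in both. Usp18 (ENSMUSG00000030107) had normalized counts of 218, 228, 168 and 259.9 in Trsp fl/fl, 116, 129.8, 188 and 216 in the Trsp fl/fl::AlbCre livers, 271, 352, 277 and 439.7 in Keap1 mutant::Trsp fl/fl, and 161, 101, 128 and 90.0 in Keap1 mutant::Trsp fl/fl::AlbCre. Usp18 was the steadiest member within genotypes, with the highest library 1.54 to 1.82 times the lowest on the same scale. All 4 Keap1 mutant::Trsp fl/fl livers lay above all livers of the other 3 genotypes, and the Keap1 mutant::Trsp fl/fl::AlbCre group had the lowest mean. Its means were 7.78 ± 0.26, 7.33 ± 0.41, 8.38 ± 0.33 and 6.92 ± 0.36 on the log2 scale in the same order of genotypes (SD, n = 4 each).

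Irf7 encodes the transcription factor that amplifies interferon production and the response to it. Irf7 (ENSMUSG00000025498) had normalized counts of 505, 558, 307 and 427 in Trsp fl/fl, 315, 354, 497 and 675 in the Trsp fl/fl::AlbCre livers, 509.8, 594, 218 and 913 in Keap1 mutant::Trsp fl/fl, and 321, 155, 385 and 91.0 in Keap1 mutant::Trsp fl/fl::AlbCre. Irf7 was below 400 in every Keap1 mutant::Trsp fl/fl::AlbCre liver, but Keap1 mutant::Trsp fl/fl replicate 3 had only 218, so those groups overlapped.

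The Ifit genes encode proteins that bind foreign RNA and block its translation. Ifit1 (ENSMUSG00000034459) had normalized counts of 213, 174, 90.0 and 52.2 in Trsp fl/fl, 54.7, 83.9, 175 and 146 in the Trsp fl/fl::AlbCre livers, 114, 119.9, 106 and 247 in Keap1 mutant::Trsp fl/fl, and 129, 78.5, 60.5 and 54.0 in Keap1 mutant::Trsp fl/fl::AlbCre. Ifit2 (ENSMUSG00000045932) had normalized counts of 184, 204, 152 and 117 in Trsp fl/fl, 80.0, 81.3, 253 and 289 in the Trsp fl/fl::AlbCre livers, 154, 198, 127 and 419 in Keap1 mutant::Trsp fl/fl, and 134, 102, 157 and 39.0 in Keap1 mutant::Trsp fl/fl::AlbCre. Ifit3 (ENSMUSG00000074896) had normalized counts of 254, 279, 169.7 and 174 in Trsp fl/fl, 101, 161, 381 and 396 in the Trsp fl/fl::AlbCre livers, 168, 238, 156 and 456 in Keap1 mutant::Trsp fl/fl, and 262, 140.2, 167 and 93.0 in Keap1 mutant::Trsp fl/fl::AlbCre. All 3 were low in replicates 1 and 2 of Trsp fl/fl::AlbCre and high in replicates 3 and 4, with no value between: for Ifit2 the lower pair stood at 80.0 and 81.3 and the higher pair at 253 and 289. In the Keap1 mutant::Trsp fl/fl group, replicate 4 was the highest for all 3. Ifit3 has a near-identical copy, Ifit3b, and reads may have been divided between the copies, so its level is uncertain.

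Oas1a encodes an enzyme that makes 2′-5′ oligoadenylates, the signal that switches on RNase L, and Oasl2 a relative of it. Oas1a (ENSMUSG00000052776) had normalized counts of 99.0, 113, 46.9 and 65.9 in Trsp fl/fl, 36.4, 44.6, 118 and 104 in the Trsp fl/fl::AlbCre livers, 89.6, 97.8, 63.6 and 139 in Keap1 mutant::Trsp fl/fl, and 114, 60.0, 111 and 27.0 in Keap1 mutant::Trsp fl/fl::AlbCre. Oasl2 (ENSMUSG00000029561) had normalized counts of 123, 116, 104 and 58.4 in Trsp fl/fl, 56.7, 80.0, 72.9 and 105 in the Trsp fl/fl::AlbCre livers, 102, 128, 71.0 and 178 in Keap1 mutant::Trsp fl/fl, and 132, 85.5, 101 and 51.0 in Keap1 mutant::Trsp fl/fl::AlbCre. Oas1a showed the same low and high pairs in Trsp fl/fl::AlbCre as the Ifit genes, while Oasl2 did not, with replicate 2 above replicate 3. Oas1a belongs to a family of closely related genes in tandem, and its level is uncertain for the same reason as that of Ifit3.

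Rsad2 encodes viperin, an enzyme that makes a nucleotide which ends viral RNA chains, and Ifi44 a cytoplasmic protein that interferon induces. Rsad2 (ENSMUSG00000020641) had normalized counts of 342, 428, 178 and 308 in Trsp fl/fl, 174, 197, 309.8 and 329.7 in the Trsp fl/fl::AlbCre livers, 195, 230.1, 196 and 469 in Keap1 mutant::Trsp fl/fl, and 597, 218, 185 and 112 in Keap1 mutant::Trsp fl/fl::AlbCre. The highest Rsad2 value of all 16 livers was in Keap1 mutant::Trsp fl/fl::AlbCre replicate 1, the library that stood apart, at 597 against 112 to 218 in the other 3 of its group. Ifi44 (ENSMUSG00000028037) had normalized counts of 128, 110.4, 67.5 and 62.2 in Trsp fl/fl, 32.4, 38.0, 116 and 156 in the Trsp fl/fl::AlbCre livers, 89.6, 143, 84.0 and 287 in Keap1 mutant::Trsp fl/fl, and 63.4, 42.3, 74.2 and 42.0 in Keap1 mutant::Trsp fl/fl::AlbCre. Ifi44 was lower in each Keap1 mutant::Trsp fl/fl::AlbCre liver than in each Keap1 mutant::Trsp fl/fl liver, and its widest spread was in Trsp fl/fl::AlbCre, where the highest library was 4.38 times the lowest.

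**Figure D2:**
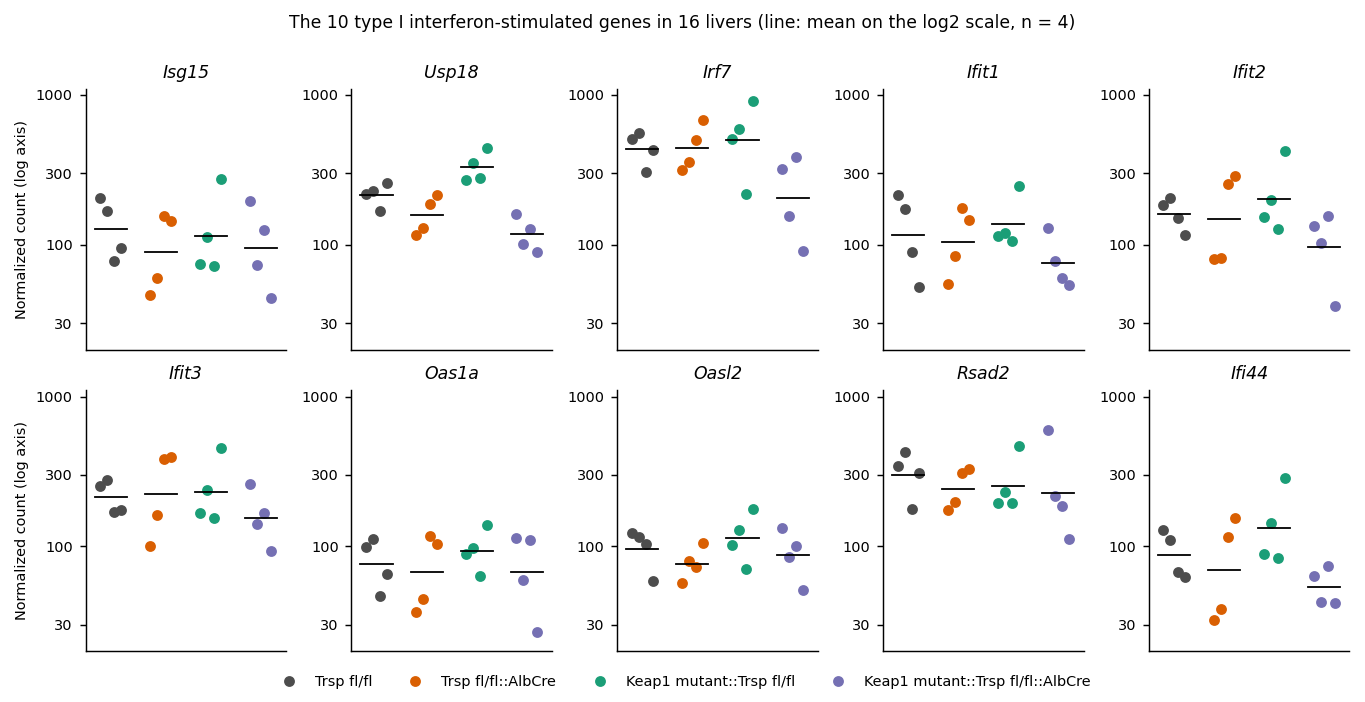
Normalized counts (log axis) of the 10 members in each of the 16 livers, with points for replicates 1 to 4 from left to right and a line for the mean on the log2 scale. Usp18 is the member whose Keap1 mutant::Trsp fl/fl livers (271 to 439.7) lie above all others. In Trsp fl/fl::AlbCre, replicates 1 and 2 lie below replicates 3 and 4 for every member but Oasl2.

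The members rose and fell together from liver to liver within a genotype. As a description over 16 libraries, with each library's deviation taken from its genotype mean, Pearson's r between pairs of members ranged from 0.56 to 0.95, with a median of 0.81 over 45 pairs. The points share library, depth and size factor. The mean of the 10 members, as the log2 difference from the 16-library mean, was 0.50 and 0.51 in replicates 1 and 2 of Trsp fl/fl and -0.26 and -0.19 in replicates 3 and 4. It was -0.82 and -0.52 in replicates 1 and 2 of Trsp fl/fl::AlbCre and 0.43 and 0.57 in replicates 3 and 4. The Keap1 mutant::Trsp fl/fl livers ranged from -0.23 to 1.20, with replicate 4 the highest of all 16, and the Keap1 mutant::Trsp fl/fl::AlbCre livers from -1.23 to 0.28, with replicate 4 the lowest. Of the variation of this mean between libraries, 22.4% lay between genotypes, and for single members the share ran from 5.58% (Rsad2) to 76.6% (Usp18).

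The comparisons used limma and the log2 values of all 15781 genes tested, and a gene was called at a Benjamini-Hochberg adjusted p under 0.01 and an absolute log2 fold change over 1. A fold change here compares log2(normalized count + 4), and so is too small for low genes. In bulk liver, fewer cells of a type and less RNA per cell cannot be told apart.

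Deletion of Trsp with wild-type Keap1 called none of the members, where 0.215% of all genes tested were called. The fold changes of the members ran from -0.49 (Isg15) to 0.06 (Ifit3), with a median of -0.24 and 8 of 10 lower, beside a median of -0.01 and 52.3% lower over all genes. None had an unadjusted p under 0.05 (11.0% of all genes) and limma voom also called 0. None of the members had groups that did not overlap (6.01% of all genes). The 95% interval was widest for Isg15, from -1.59 to 0.61, and narrowest for Usp18, from -0.93 to 0.04 around -0.45. The median of the members went to 0.05 without Trsp fl/fl::AlbCre replicate 1, so its direction rests on that library.

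With mutant Keap1, Usp18 was called lower in AlbCre livers, the only one of the 10 members called in any comparison, where 0.171% of all genes were called. It fell by 1.46 on the log2 scale (standard error 0.23, 95% interval -1.94 to -0.97, limma adjusted p = 0.0065), a level 0.365 times that of Keap1 mutant::Trsp fl/fl, with each of the 4 AlbCre livers (90.0 to 161) below each control liver (271 to 439.7). The call was lost in 13 of 29 alternative fits, where the adjusted p reached 0.033 and the fold change stayed between -1.55 and -1.32. It was lost without any 1 of the Keap1 mutant::Trsp fl/fl libraries, without replicate 2, 3 or 4 of Keap1 mutant::Trsp fl/fl::AlbCre and without Trsp fl/fl replicate 2, and kept without the library that stood apart (fold change -1.61, adjusted p = 0.0051).

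All 10 members had fold changes below 0 in that comparison, from -1.46 (Usp18) to -0.15 (Rsad2), with a median of -0.70, beside 50.7% of all genes below 0. In 4 of the 10 the unadjusted p was under 0.05, against 13.6% of all genes: Usp18, Irf7 (log2 fold change -1.26, 95% interval -2.20 to -0.31, adjusted p = 0.22), Ifi44 (-1.24, interval -2.24 to -0.25, adjusted p = 0.25) and Ifit2 (-1.03, interval -2.06 to -0.0039, adjusted p = 0.37). Usp18 and Ifi44 were the 2 members whose groups did not overlap, against 7.69% of all genes. The other members stood at -0.83 (Ifit1), -0.57 (Ifit3), -0.44 (Oas1a), -0.36 (Oasl2), -0.26 (Isg15) and -0.15 (Rsad2), none of them distinguishable from 0 beside standard errors of 0.32 to 0.52. Without Keap1 mutant::Trsp fl/fl::AlbCre replicate 1, the median was -0.94 and 5 of 10 had an unadjusted p under 0.05. Rsad2 then stood at -0.60. Without Keap1 mutant::Trsp fl/fl replicate 4 the median was -0.41 and 1 of 10 had such a p, and without Keap1 mutant::Trsp fl/fl::AlbCre replicate 4 they were -0.48 and 2 of 10. Isg15 and Rsad2 turned above 0 without Keap1 mutant::Trsp fl/fl replicate 4, and again without Keap1 mutant::Trsp fl/fl::AlbCre replicate 4.

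The Keap1 substitutions on their own, in livers with Trsp, called none of the members (0.0127% of all genes), and limma voom called 0. The fold changes ran from -0.24 (Rsad2) to 0.60 (Usp18), with a median of 0.23 and 8 of 10 higher. Usp18 was the 1 member with an unadjusted p under 0.05 (9.07% of all genes) and the 1 whose groups did not overlap (6.23% of all genes), with 168 to 259.9 in Trsp fl/fl and 271 to 439.7 in Keap1 mutant::Trsp fl/fl (fold 1.51, 95% interval 0.11 to 1.08 on the log2 scale, limma adjusted p = 0.43). Without Keap1 mutant::Trsp fl/fl replicate 4 the median of the 10 members was -0.03. This comparison and the previous one share the Keap1 mutant::Trsp fl/fl livers.

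In AlbCre livers, the Keap1 mutant against wild-type Keap1 called none of the members (0.57% of all genes), and limma voom called 0. Irf7 was the lowest, at -1.09 (95% interval -2.03 to -0.14, limma adjusted p = 0.22), and the 1 member with an unadjusted p under 0.05 (17.6% of all genes). The others ran from -0.60 (Ifit2) to 0.18 (Oasl2), and the groups of all 10 members overlapped (8.61% of all genes did not). The median was -0.38 with 7 of 10 lower. Without the library that stood apart it was -0.55 with 10 of 10 lower and 2 with an unadjusted p under 0.05, and Oasl2 stood at -0.01. The number with such a p was 0 with library totals, with voom, and without replicate 3 or 4 of Trsp fl/fl::AlbCre or replicate 2 or 4 of Keap1 mutant::Trsp fl/fl::AlbCre, and 3 without Trsp fl/fl::AlbCre replicate 1.

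Whether the knockout's effect differed with the Keap1 genotype was tested as an interaction, which called none of the members (0.057% of all genes), and limma voom called 0. Irf7 (-1.26) and Usp18 (-1.01, standard error 0.32, adjusted p = 0.35) were the lowest and Isg15 (0.23) the highest, and Usp18 was the 1 member with an unadjusted p under 0.05 (10.8% of all genes). A knockout effect that depends on Keap1 was thus not shown for any member, and the intervals were wide: that of Irf7 ran from -2.60 to 0.07. The median was -0.66 with 8 of 10 lower. Without the library that stood apart it was -0.90 with 10 of 10 lower, Isg15 stood at -0.11, and 2 of 10 had an unadjusted p under 0.05.

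**Figure D3:**
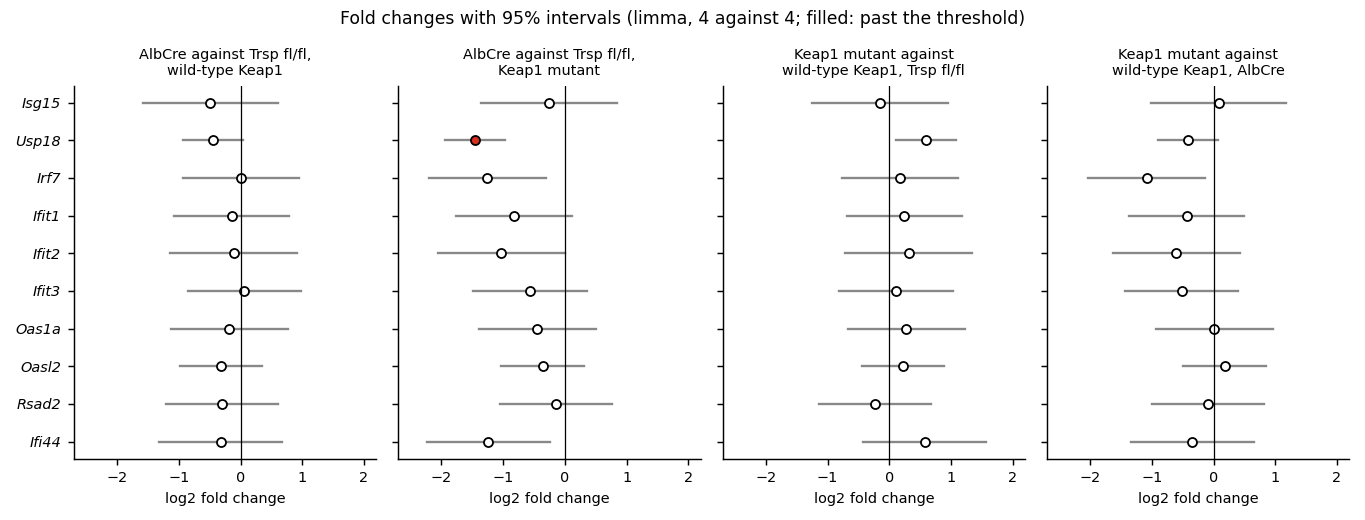
Log2 fold changes (points) with 95% intervals (lines) of the 10 members in 4 comparisons of 4 against 4 livers, from limma. A filled point was called, which is Usp18 in the Keap1 mutant livers alone (-1.46), and most intervals cross 0.

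The gamma-type lists had median fold changes farther from 0 than the members in 3 of the 4 comparisons, the exception being the Keap1 mutant against wild-type Keap1 in AlbCre livers (-0.13 and 0.11, beside -0.38). All 18 GTPases of the gamma response were tested. With mutant Keap1, 18 of 18 had a fold change below 0 in AlbCre against Trsp fl/fl livers. Their median was -1.55, beside the members' 10 of 10 and median of -0.70. In 15 of the 18 the unadjusted p was under 0.05, against 13.6% of all genes. Tgtp1, an immunity-related GTPase, was the GTPase called (log2 fold change -3.49, 95% interval -4.72 to -2.26, limma adjusted p = 0.0096). Tgtp1 (ENSMUSG00000078922) had normalized counts of 623, 311, 149 and 183 in Trsp fl/fl, 105, 104, 155 and 247 in the Trsp fl/fl::AlbCre livers, 609.9, 3433, 855 and 4219 in Keap1 mutant::Trsp fl/fl, and 154, 123, 236 and 96.0 in Keap1 mutant::Trsp fl/fl::AlbCre. Of 17 other gamma-type genes tested, including the immunoproteasome subunit Psmb8 and genes of antigen presentation, 17 were below 0 (median -1.02, 12 with an unadjusted p under 0.05), and Cd74, the invariant chain of MHC class II, was called (-1.58, adjusted p = 0.0078). Psmb8 was the lowest of them (-2.02, adjusted p = 0.089). Without the library that stood apart the medians were -1.55 and -1.08, and neither gene was called (Tgtp1 -3.52, adjusted p = 0.0285, and Cd74 -1.50, adjusted p = 0.0309). With each of the 16 libraries left out in turn, the call of Tgtp1 was kept in 3 fits and that of Cd74 in 4, so both calls lie at the threshold.

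For the Keap1 substitutions on their own, the medians were 1.07 for the GTPases (18 of 18 above 0, 8 with an unadjusted p under 0.05) and 0.80 for the other gamma-type genes (16 of 17 above 0, 9 with an unadjusted p under 0.05), beside 0.23 for the members. None of the 35 was called (0.0127% of all genes), and 9.07% of all genes had an unadjusted p under 0.05. Gbp2b, a guanylate-binding GTPase, had the largest fold change (4.09, limma adjusted p = 0.055). The GTPases' mean, as the log2 difference from the 16-library mean, was 1.68 and 2.23 in replicates 2 and 4 of Keap1 mutant::Trsp fl/fl. It was 0.48 and 0.38 in replicates 1 and 3 of that group, and 0.62 in Trsp fl/fl replicate 1. How far the gamma-type medians rest on replicates 2 and 4 was not tested. Markers of immune cells had fold changes above 0 in the same comparison: the 5 B cell markers had a median of 1.49, 5 with an unadjusted p under 0.05, the 8 T and NK cell markers 0.55 and the 7 Kupffer cell markers 0.38, with all of them above 0 and none called. Their part in these values, Cd74 and other genes of MHC class II among them, was not tested. The deletion with wild-type Keap1 gave medians of -0.48 and -0.44 for the gamma-type lists, beside the members' -0.24. The difference between the lists was not tested, and the rows stand side by side as a description.

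Library by library, the lists moved together, but their levels separated by genotype differently. Over 16 libraries the mean of the 18 GTPases and that of the 10 members had r = 0.81, and r = 0.89 within genotypes, where the points again share library and depth. The GTPases' mean was 0.38 to 2.23 in the Keap1 mutant::Trsp fl/fl livers and between -1.21 and 0.62 in the other 12, and of the latter, Trsp fl/fl replicate 1 alone (0.62) lay above 2 of those 4 livers (0.48 and 0.38). Of its variation, 56.3% lay between genotypes. Livers with a like mean of the members could stand apart in the GTPases: Keap1 mutant::Trsp fl/fl replicate 3 had -0.23 for the members and 0.38 for the GTPases, where Trsp fl/fl replicate 3 had -0.26 and -0.75.

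**Figure D4:**
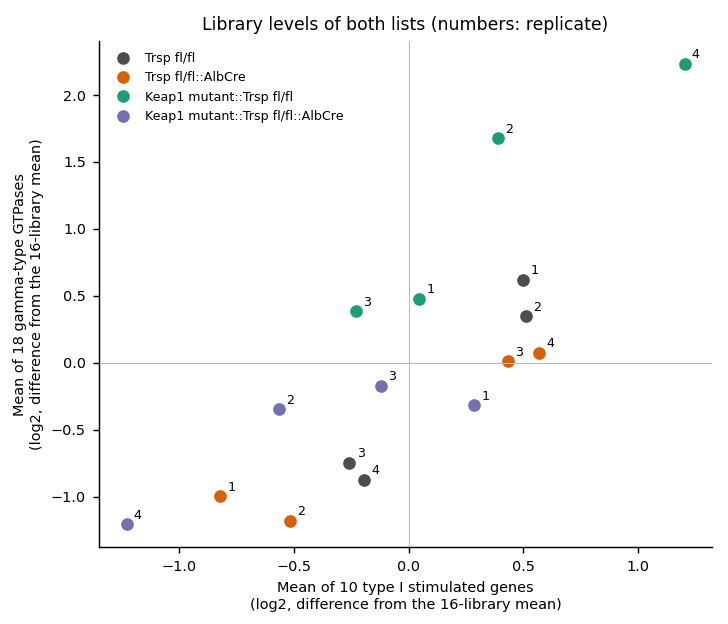
Each point is a liver, placed by the mean of the 10 members (horizontal) and of 18 GTPases of the gamma response (vertical), both as the log2 difference from the 16-library mean, with the replicate number beside it. The Keap1 mutant::Trsp fl/fl livers lie between 0.38 and 2.23 on the vertical axis, and Trsp fl/fl replicate 1 (0.62) lies within that range. On the horizontal axis the 4 genotypes overlap.

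The wider list of type I stimulated genes was on the same side of 0 as the members in each comparison, with a median nearer to 0 in all but the substitutions with Trsp. Of 39 other type I stimulated genes tested out of 40 listed, none was called in any comparison by limma. At most 0.57% of all genes were called in a comparison. With mutant Keap1 in AlbCre against Trsp fl/fl livers, 10 of the 39 had an unadjusted p under 0.05 (13.6% of all genes). In that comparison 38 of the 39 were below 0 with a median of -0.50. Their medians were -0.22, 0.28, -0.08 and -0.38 for the deletion with wild-type Keap1, the substitutions with Trsp, the substitutions in AlbCre livers and the interaction, beside -0.24, 0.23, -0.38 and -0.66 for the members. Mx1, which encodes an antiviral GTPase, had the largest fold change with mutant Keap1 (-1.87, adjusted p = 0.16), on 12.2 to 33.5 normalized counts in Keap1 mutant::Trsp fl/fl and values of 4.66, 8.82, 0 and 0 in Keap1 mutant::Trsp fl/fl::AlbCre. Isg20, which encodes an RNA exonuclease, was the largest with wild-type Keap1 (-0.96, adjusted p = 0.40) and went the other way with mutant Keap1, as the 1 of 39 genes above 0 (0.82, adjusted p = 0.40). Isg20 was also the largest for the substitutions in AlbCre livers (1.003, adjusted p = 0.22) and for the interaction (1.78, unadjusted p = 0.0078 and adjusted p = 0.36, limma).

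Upstream of the members, 0 of 5 receptor genes, 0 of 13 signalling factors and 0 of 15 nucleic acid sensors tested were called in any of the comparisons by limma. At most 0.57% of all genes were called in a comparison. The 14 interferon ligand genes listed were not analysed here. The receptor genes stayed within -0.31 and 0.23 in the 4 comparisons, Ifngr1 being the farthest from 0 (-0.31, adjusted p = 0.29, with mutant Keap1 in AlbCre against Trsp fl/fl livers). Socs3, an inhibitor of cytokine receptors, had the low and high pairs of the Ifit genes in Trsp fl/fl::AlbCre, at 76.9 and 78.7 in replicates 1 and 2 and 747 and 704 in replicates 3 and 4, against 115 to 143 in Trsp fl/fl. Among sensors, Cgas, the DNA sensor, was the largest with wild-type Keap1 (-0.67, adjusted p = 0.43), and Tlr9, an endosomal DNA receptor, with mutant Keap1 (-1.12, adjusted p = 0.091).

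Markers of Kupffer, T and NK, and B cells, and most of those of hepatocytes, also had fold changes below 0 in the comparison with the call. Most neutrophil markers had fold changes above 0 there. With mutant Keap1, all 7 Kupffer cell markers had a fold change below 0 in AlbCre against Trsp fl/fl livers (median -0.63), and their summed normalized count was 4227 to 9194 against 6737 to 16046. All 8 T and NK cell markers tested were below 0 as well (median -0.71), with sums of 76 to 142 against 130 to 266, as were all 5 B cell markers (median -0.32), with sums of 110 to 273 against 161 to 322. None of these was called, and the part of these cells in the members' values was not tested. Of the 6 hepatocyte markers 5 were below 0 (median -0.45), Ttr, which encodes transthyretin, being the lowest (-0.81, adjusted p = 0.14), and the endothelial markers had a median of -0.03. Without the library that stood apart the medians were -0.63 (Kupffer), -0.59 (T and NK), -0.14 (B, with 4 of 5 below 0) and -0.27 (hepatocyte). The B cell markers stood apart by Keap1 genotype with a small overlap, with sums of 43 to 114 in the livers with wild-type Keap1 and 110 to 322 in the Keap1 mutant livers. Over the 16 libraries the Kupffer cell marker mean had r = 0.68 with the members' mean, and r = 0.62 within genotypes. Within genotypes, r was 0.58 for erythroid, 0.51 for B cell, 0.48 for endothelial and 0.45 for T and NK cell markers. It was -0.12 for neutrophil and -0.47 for hepatocyte markers, and all these points share library and depth. Of 2 plasmacytoid dendritic cell markers tested, cells known as strong makers of type I interferon, both were near the floor, with sums of 12 to 43. The neutrophil markers had the members' direction for the deletion with wild-type Keap1 (median -0.62) and the substitutions with Trsp (0.999), and the opposite one for the deletion with mutant Keap1 (0.33) and the substitutions in AlbCre livers (2.06), and the erythroid markers had a median of -1.18 for the deletion with wild-type Keap1 and 0.72 with mutant Keap1.

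The genes whose level followed the members most closely were found by Pearson's r with the members' mean within genotypes, over 16 libraries and all genes tested. The 10 most alike, as a description, were Dhx58 (r = 0.96), a regulator of RNA sensing, the guanylate-binding GTPases Gbp5 (0.96) and Gbp3 (0.96), Tmod3 (0.95), an actin-capping protein, Rtp4 (0.95), the macrophage scavenger receptor Msr1 (0.95), Mndal (0.94), Lacc1 (0.94), Ddx58 (0.94), which encodes the RNA sensor RIG-I, and Ifi204 (0.94). Dhx58, Rtp4, Ddx58 and Ifi204 were also on the lists of sensors or type I stimulated genes. Dhx58 (ENSMUSG00000017830) had normalized counts of 164, 141, 68.4 and 84.5 in Trsp fl/fl, 50.6, 66.9, 167 and 189 in the Trsp fl/fl::AlbCre livers, 76.6, 113, 86.5 and 189 in Keap1 mutant::Trsp fl/fl, and 120.3, 61.7, 97.1 and 47.0 in Keap1 mutant::Trsp fl/fl::AlbCre. Dhx58 thus showed the low and high pairs of Trsp fl/fl::AlbCre and the highest Keap1 mutant::Trsp fl/fl value in replicate 4, level with Trsp fl/fl::AlbCre replicate 4. Without centring on the genotype, 4 of the 10 stayed among the 10 most alike, and Tmod3, Msr1 and Lacc1 fell to r between 0.60 and 0.62. Without the library that stood apart, Ifi204, Ddx58 and Msr1 ranked 11, 12 and 13.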

How the data were processed

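Per the study's methods, ribosomal RNA was depleted, directional libraries were sequenced, transcripts of the GENCODE mouse set were quantified with Salmon, and the table was made on the iDEP platform. The authors deposited log2 values per gene and library. Tested on the table, they are log2(reads / size factor + 4): 100% of the low values came out as whole reads within 0.1 read, and the size factors matched the median-of-ratios factors of those reads to within 0.328%. Normalized counts are these values with the log2 and the 4 undone. Every per-sample column was used. The 369 of 18578 rows without an identifier, with 0.274% to 0.627% of a library's reads, stayed out.

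The 15781 genes that reached 10 normalized counts in 4 or more libraries entered limma 3.58.1 (R 4.3.3; lmFit, contrasts, eBayes with trend), with a mean per genotype, no covariates and Benjamini-Hochberg adjustment over all of them. The design had assumed a count-like unit, and limma was used since the unit was log2. On data simulated for the deletion with wild-type Keap1, with 192 changed genes of 15747, the fit called 189 rightly, 0 in the wrong direction and 1 unchanged gene. Every change was simulated at the same size, larger than any fold change of the members, and with the same dispersion for all genes. The simulation thus does not show how often smaller changes, or changes in more variable genes, would be called. How far counting error and differences between mice each limit the precision was not tested. No 2 libraries were identical.

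Alternatives changed the constant, the filter, the scaling, the samples fitted, the trend, the model (voom on recovered reads), the thresholds and the replicate block, and left out each library in turn. The values of the other lists without 1 library, and of Tgtp1 and Cd74 with each library left out, were added after the data were seen. The members and the gene lists were chosen with earlier results of these data known. Named are all members, and from each other list the called genes and those with the largest fold change in a comparison, with a few gene-specific checks. Motifs were searched in RefSeq promoters of GRCm38.p6, a build the expression table does not use. The deletion of Trsp itself was not analysed here. Python 3.11.15 with matplotlib 3.10.9 drew the plots.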

Additional observations from a re-analysis of the deposited data

Results flagged for a closer look

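In Keap1 mutant::Trsp fl/fl livers, Ifit1 in replicate 4 stood far from the other 3: 7.97 on the log2 scale (a normalized count of 247, against 106 to 119.9). Its gap to the nearest library was 0.856 of the group's range, over Dixon's 95% critical value for 4 samples. It was the 1 value flagged among 40 groups of 4 (10 members in 4 genotypes), where chance would flag about 2.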

How the results depend on the processing

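The call of Usp18 with mutant Keap1 (AlbCre against Trsp fl/fl) changed with the processing. The number of members called there was 0 with library totals (adjusted p = 0.011), with only the compared groups (0.025), without the trend (0.012), with limma voom (0.011) and with the replicate block (0.024), and 0 to 1 with a library left out. The cause was not tested, except that fewer samples enter a fit with a library or group left out. Other constants, other filters, quantile normalization and an adjusted p under 0.05 kept 1. In the other 3 comparisons and the interaction the number was 0 under every alternative run. Library totals and voom shifted the median of all genes by 0.12 to 0.14 for the deletion with mutant Keap1, the substitutions in AlbCre livers and the interaction, so part of their smaller fold changes is that shift. Replicate numbers did not pair the samples: same-numbered libraries' deviations correlated between -0.32 and 0.31, and 2 of 16 libraries were nearest to their own number. The block changed no other call.

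With a library left out, the fold change ranged from -0.21 to 0.43 for Ifit3 (deletion, wild-type Keap1), from -0.60 to 0.16 for Isg15 and from -0.60 to 0.19 for Rsad2 (deletion, mutant Keap1), from -0.012 to 0.42 for Oasl2 (substitutions in AlbCre livers) and from -0.11 to 0.65 for Isg15 (interaction), and the cause was not tested. The members with the response element core numbered 5 with a stricter form of the motif (3.44% of all promoters) and 6 with the shorter AANNGAAA (23.9%). Without centring on the genotype, 4 of the 10 genes most alike remained.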
